A study of Homo sapiens with 6 samples.

Results

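The genes described are 8 mucins: the membrane mucins MUC1, MUC4, MUC13, MUC15, MUC16 and MUC20, and the secreted mucins MUC5AC and MUC5B. They were chosen by name, and each had 1 of the 19361 rows of the expression table. The cells were UMUC-14, a human line established from bladder cancer, and their RNA was read with short oligonucleotide probes on the Affymetrix U133 Plus 2.0 array. Of the 6 arrays, 3 held cells given LipofectaminRNAimax, a transfection reagent, with no siRNA, and these are called the reagent-alone controls. The other 3 held cells transfected with siFGFR3#35, siFGFR3#36 or siFGFR3#3, each array with a different siRNA against FGFR3, a receptor tyrosine kinase for fibroblast growth factors that is often mutated in bladder cancer. Transfection lasted 40 h, and 100 ng of RNA was labelled per array.

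No non-targeting siRNA is named in the labels, so effects of any transfected siRNA and effects of losing FGFR3 cannot be told apart by group. The labels do not state that the controls came from separate cultures, and the p-values then measure only the spread between these samples, which may be technical. Values are log2 expression levels. With different probes behind each gene, the level of one mucin was not set against that of another. In bulk RNA, fewer cells that express a gene and less RNA per cell cannot be told apart.

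Mucins are large glycoproteins whose repeat regions carry dense O-linked sugar chains. Membrane mucins are anchored by a single transmembrane segment, form the outer layer of the epithelial surface and, through their intracellular tails or extracellular domains, contact growth factor receptors. Secreted gel-forming mucins such as MUC5AC and MUC5B are packed into granules of goblet and gland cells and make up the mucus of airways and stomach. In the bladder, mucins contribute to the coat over the urothelium.

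RefSeq promoter windows (GRCh38.p14, 250 bases before to 50 after the gene start) were matched for 4 of the 8 members, MUC1, MUC4, MUC13 and MUC16. The 250 bases before the start are shown for MUC1, the member with a window that was bright enough to be tested, and for MUC4, which lies beside MUC20 on chromosome 3. Both read 5′ to 3′ on the gene's own strand, which is the minus strand of chr1:155192916-155193165 and of chr3:195811930-195812179. Capitals mark matches, on either strand, to 4 motifs that were searched: AGGAA, the core bound by many ETS factors, TGANTCA of AP-1, TTCNNNGAA of STAT factors, and a pair of GAAA runs with 2 bases between them, as in interferon-stimulated elements.
MUC1: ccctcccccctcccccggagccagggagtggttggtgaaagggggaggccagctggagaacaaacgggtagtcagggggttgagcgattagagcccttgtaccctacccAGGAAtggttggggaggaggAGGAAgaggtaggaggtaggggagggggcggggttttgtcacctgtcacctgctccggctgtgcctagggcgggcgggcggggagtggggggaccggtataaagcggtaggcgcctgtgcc
MUC4: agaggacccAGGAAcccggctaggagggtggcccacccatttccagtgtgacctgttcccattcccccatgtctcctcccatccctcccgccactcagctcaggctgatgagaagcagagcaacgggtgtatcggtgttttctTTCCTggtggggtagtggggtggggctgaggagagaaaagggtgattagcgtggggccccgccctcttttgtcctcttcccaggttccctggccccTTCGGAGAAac
AGGAA was present in 4 of the 4 member windows and in 63.2% of all 27305 RefSeq windows of 300 bases. TTCNNNGAA was present in the MUC4 window alone among the 4, and in 7.88% of all windows. TGANTCA was found in the MUC13 window alone among the 4, and in 7.76% of all windows. The paired GAAA runs were in 0 of the 4 and in 3.65% of all windows. The motif matches did not overlap each other, and each is a match of letters only.

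The target of the siRNAs was read first. FGFR3 was at 8.70, 8.75 and 8.74 in the controls, at 7.47 with siFGFR3#35, at 7.14 with siFGFR3#36 and at 8.45 with siFGFR3#3. All siFGFR3 arrays lay below all controls, at 41.7%, 33.3% and 82.2% of the control mean on the linear scale, so the array with siFGFR3#3 kept most of the FGFR3 signal. The change was -1.04 (SE 0.30, adjusted p = 0.0271 in limma). FGFR3 did not pass without any one of the controls (adjusted p = 0.0732, 0.0783 and 0.0817 without replicates 1, 2 and 3) or without siFGFR3#35 (adjusted p = 0.0703). With siFGFR3#35, siFGFR3#36 and siFGFR3#3, ETV4 changed by -2.05, -1.56 and -2.24 and ETV5 by -2.48, -1.39 and -2.52 (both ETS factors). FOSL1, an AP-1 subunit, changed by -3.46, -1.45 and -2.63. All were smallest with siFGFR3#36. Their tie to FGFR3 was not tested.

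Over the whole table, the dimmest 30% of rows by mean level were left out, which removed rows below 3.89 and left 13552 genes to test. Array medians lay between 5.41 and 5.52. A gene was called at an adjusted p under 0.05, and 45.1% of tested genes were called, 20.6% higher and 24.6% lower in siFGFR3 cells. The share fell to 27.0%, 27.7% and 26.9% without control replicates 1, 2 and 3. For 60.8% of tested genes, and 52.9% of all rows, the siFGFR3 arrays lay all above or all below the controls. These shares are the background against which each count below is read.

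Among the 8 mucins, MUC20 rose strongly with every siRNA, MUC5AC and MUC5B fell slightly, MUC1 did not pass the test, and MUC4, MUC13, MUC15 and MUC16 were too dim to be tested. The 4 members that passed the filter on dim rows were 2 of the 6 membrane mucins and both secreted mucins. Of the 8 rows, 5 had groups that did not overlap (52.9% of all rows did), with MUC20 above the controls and MUC4, MUC16, MUC5AC and MUC5B below them. Of the 4 tested, 1 was called higher (20.6% of all tested genes were) and 2 were called lower (24.6% were). Of these 2, MUC5AC passed the filter only through its control values. MUC5AC and MUC5B were called under 6 and 7 of the 12 alternatives in which they were tested.

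MUC20 (Entrez gene 200958) is a small membrane mucin that binds the hepatocyte growth factor receptor MET and limits its signalling to RAS in human cells. It was at 9.63, 9.71 and 9.64 in the controls and at 11.80, 11.30 and 11.45 with siFGFR3#35, siFGFR3#36 and siFGFR3#3. The groups were far apart, with the lowest siFGFR3 array well above the highest control. The means were 9.66 ± 0.05 and 11.52 ± 0.26 (SD, n = 3 each), a rise of 1.86 (SE 0.12), which is 3.62-fold (adjusted p = 0.00027 in limma). Of the 13552 tested genes, 51 rose by more, or 0.376%. MUC20 was also called under each of the 13 alternative settings and left-out arrays, where its change ranged from 1.71 to 1.97. RefSeq lists MUC20P1, a pseudogene copy of MUC20 on the same chromosome, and whether probes of the MUC20 row also read that copy was not tested.

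MUC1 (Entrez gene 4582), the broadly expressed epithelial membrane mucin whose intracellular tail binds adaptor and adhesion proteins, was at 4.48, 4.48 and 4.52 in the controls. With siFGFR3#35, siFGFR3#36 and siFGFR3#3 it was at 4.50, 4.41 and 4.27. The groups overlapped, since the siFGFR3#35 array lay within the control range. The change of -0.10 (SE 0.08) did not pass (adjusted p = 0.353 in limma), and 43.4% of tested genes changed downward by more.

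The 4 dim membrane mucins lay close to the floor of the arrays, where a change in RNA can be compressed, and they had no test after the filter. MUC4, which binds the receptor ERBB2, was at 2.45 to 2.61 in controls and at 2.33 to 2.44 in siFGFR3 cells, and MUC16, which carries the CA125 antigen and binds mesothelin, was at 3.21 to 3.25 and at 2.93 to 3.15. For MUC4 and MUC16 every siFGFR3 array was below every control, with changes of -0.15 and -0.17, which became -0.06 and -0.05 when quantile normalization was repeated. MUC13, a membrane mucin of the gut surface, was at 3.23 to 3.30 in controls and at 3.07 to 3.33 in siFGFR3 cells. MUC15, another membrane mucin, was at 2.46 to 2.60 and at 2.45 to 3.00. MUC13 and MUC15 overlapped between groups, and their mean changes were -0.08 and 0.16. The change of MUC13 turned to 0.04 with repeated quantile normalization. When all 19361 rows were tested, where 34.0% of rows were called, none of these 4 passed (adjusted p in limma 0.142 for MUC4, 0.134 for MUC16, 0.502 for MUC13 and 0.377 for MUC15).

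**Figure D1:**
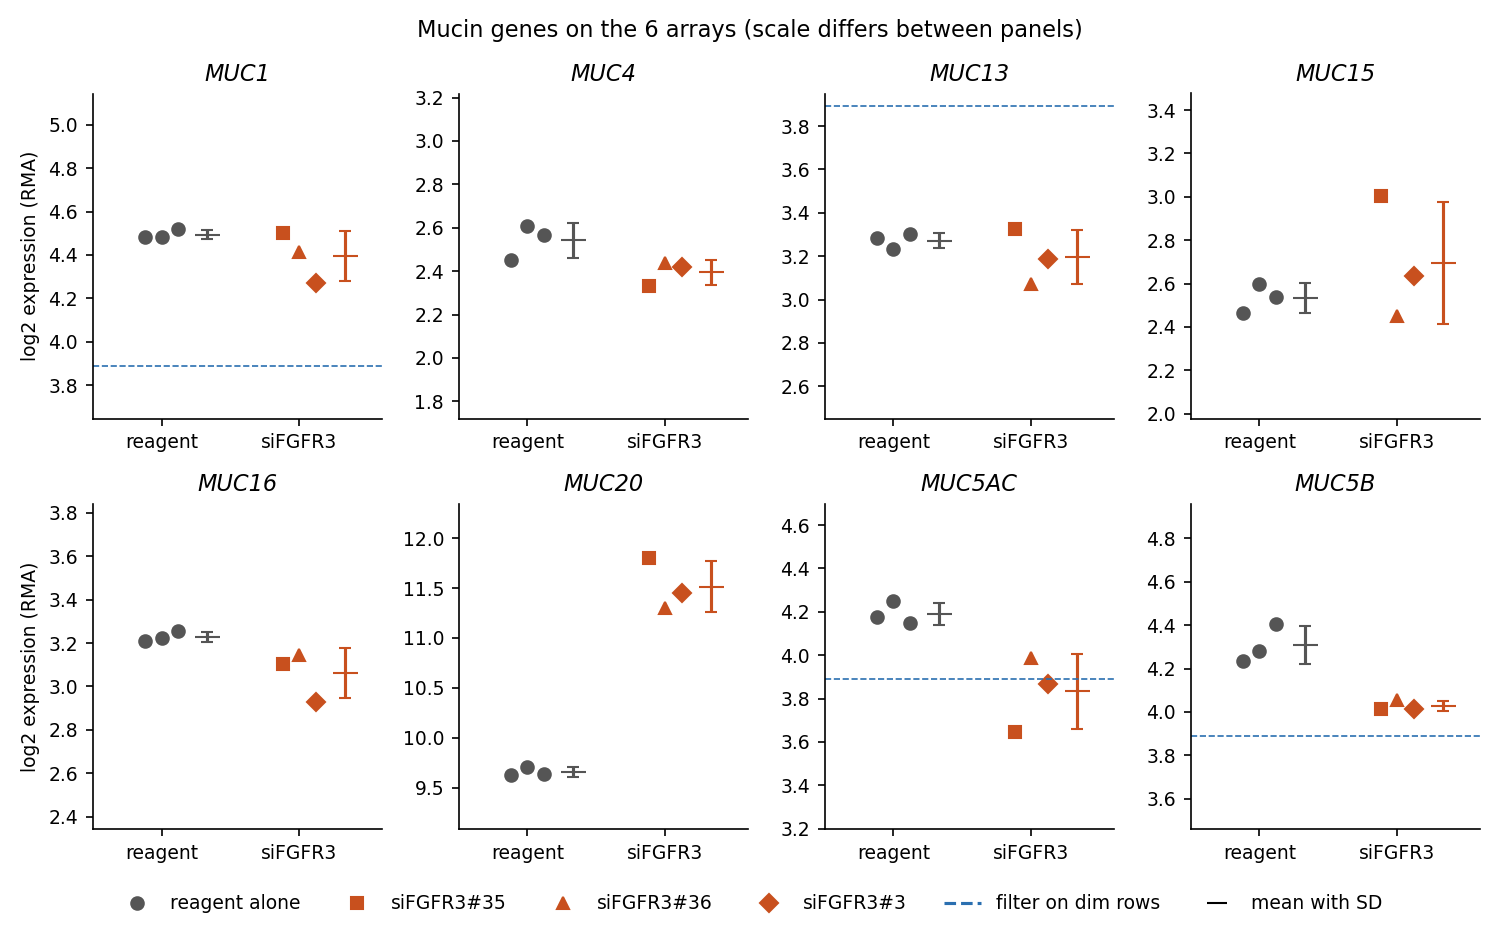
Log2 expression of the 8 mucins on each of the 6 arrays, with a panel and a vertical scale for each gene. Grey circles are reagent-alone controls, orange symbols are the 3 siRNAs, bars are the mean with SD, and the dashed line, drawn where it lies within a panel, is the level of 3.89 below which rows were not tested. MUC20 separates widely (9.66 against 11.52), MUC5AC and MUC5B separate by less than 0.4, and MUC1, MUC13 and MUC15 overlap.

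The secreted pair, 2 dim rows near the filter level, was lower in siFGFR3 cells. Dim rows leaned lower in general. The median change was -0.08 over all rows, -0.04 over tested genes and 0.002 with the dimmest 50% left out. The shares of genes that fell by more, given below, are over tested genes of every level. MUC5AC (Entrez gene 4586), the gel-forming mucin of airway goblet cells and gastric surface cells, was at 4.18, 4.25 and 4.15 in the controls. With siFGFR3#35, siFGFR3#36 and siFGFR3#3 it was at 3.65, 3.99 and 3.87. The groups did not overlap, and the siFGFR3 mean of 3.83 ± 0.17 was below the level at which rows were left out, against 4.19 ± 0.05 in controls (SD, n = 3 each). MUC5AC fell by 0.36 on the log2 scale (SE 0.10, 1.28-fold, adjusted p = 0.0269 in limma), and 15.5% of tested genes fell by more. The row passed the filter on its mean over all arrays only because of its control values, so the size of the fall is that of a row at the edge of what was tested; with all rows tested the adjusted p was 0.0312 in limma. MUC5AC did not pass without control replicates 1, 2 or 3 (adjusted p = 0.0713, 0.0885 and 0.0626), without siFGFR3#35 (0.0519) or without siFGFR3#3 (0.0552). It also did not pass when quantile normalization was repeated (-0.24, adjusted p = 0.118).

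MUC5B (Entrez gene 727897), the gel-forming mucin of airway and salivary glands, was at 4.24, 4.28 and 4.41 in the controls and at 4.02, 4.06 and 4.01 with siFGFR3#35, siFGFR3#36 and siFGFR3#3. The siFGFR3 arrays were close together and all lay below the controls. MUC5B fell by 0.28 (SE 0.08, 1.21-fold), from 4.31 ± 0.09 to 4.03 ± 0.02 (SD, n = 3 each; adjusted p = 0.0229 in limma), and 22.0% of tested genes fell by more. It did not pass without control replicate 2 (adjusted p = 0.0621), control replicate 3 (0.0709) or siFGFR3#3 (0.056), with repeated quantile normalization (-0.17, adjusted p = 0.0947) or with array weights (0.0572).

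**Figure D2:**
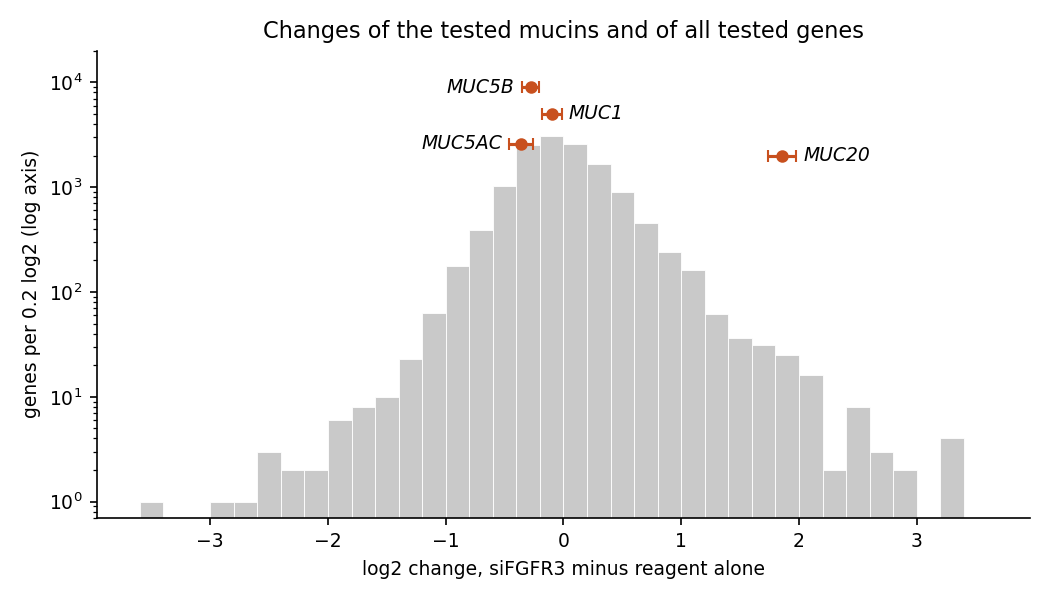
Log2 changes, siFGFR3 minus reagent alone, of the 13552 tested genes (grey bars, genes per bin of 0.2 on a log axis) and of the 4 tested mucins (orange points with SE, at arbitrary heights). MUC20 at 1.86 lies in the upper tail, with 0.376% of genes beyond it, and MUC1, MUC5AC and MUC5B lie within the central mass.

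Changes by siRNA came from a limma model that gives every siRNA its own level. Only 1 array stands for each siRNA there, with the spread of the controls taken for it, so the p-values compare arrays, not conditions, and the contrasts share their controls. MUC20 was higher by 2.14 with siFGFR3#35, by 1.64 with siFGFR3#36 and by 1.79 with siFGFR3#3 (SE 0.05 each). It was called in all 3 contrasts, in which 30.4%, 22.7% and 29.9% of tested genes were called higher. The MUC20 change on the siFGFR3#3 array, where FGFR3 RNA was at 82.2% of the control mean, lay between those of the other siRNAs. With 1 array per siRNA, a link between the FGFR3 signal and the MUC20 change was not tested.

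The MUC20 values also differed between the siRNA arrays by more than the spread of the controls. No siRNA was measured on a second array, so the spread within an siRNA is unknown and these differences are between arrays, not shown to be between siRNAs. On the siFGFR3#35 array, MUC20 exceeded the mean of the other siRNAs by 0.43 (SE 0.05, adjusted p = 0.000215 in limma). On the siFGFR3#36 array it was lower than the mean of the other siRNAs by 0.32 (adjusted p = 0.000839 in limma). The difference for siFGFR3#3, -0.10, did not pass (adjusted p = 0.173 in limma). In these contrasts 26.5%, 32.2% and 18.4% of tested genes were called in either direction.

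MUC5AC was called lower with siFGFR3#35 (-0.54, adjusted p = 0.00474 in limma), as were 30.3% of tested genes. Its changes of -0.20 with siFGFR3#36 and -0.32 with siFGFR3#3 did not pass (adjusted p = 0.218 and 0.0535 in limma). Tested against the mean of the other siRNAs, siFGFR3#35 did not differ past the threshold for MUC5AC (-0.28, SE 0.14, adjusted p = 0.171 in limma). MUC5B changed by -0.29, -0.25 and -0.29, and none passed (adjusted p = 0.0764, 0.134 and 0.0746 in limma). MUC1 changed by 0.01, -0.08 and -0.22, and none passed (adjusted p = 0.954, 0.584 and 0.114 in limma). With siFGFR3#36 and siFGFR3#3 the share of tested genes called lower was 26.8% and 30.3%.

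**Figure D3:**
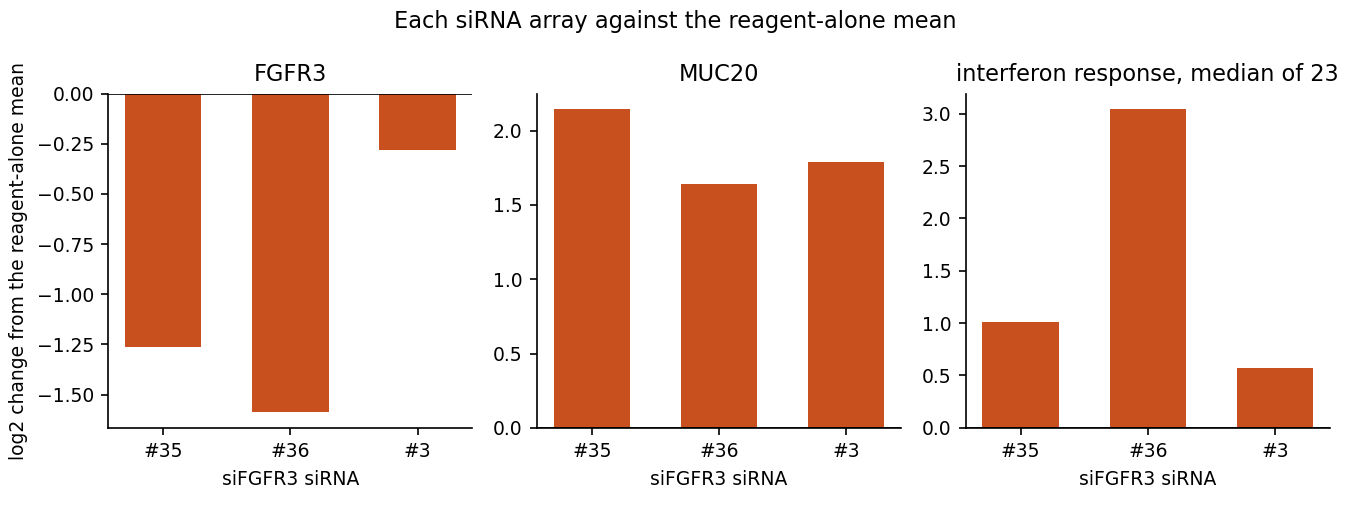
Log2 change of FGFR3 (left), MUC20 (middle) and the median of 23 interferon response genes (right) on each siFGFR3 array against the reagent-alone mean, with 1 array per bar and no error bar. FGFR3 changed least with siFGFR3#3, MUC20 changed least with siFGFR3#36 (1.64), and the interferon median was highest with siFGFR3#36 (3.04).

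Interferon response genes were read on the same arrays. Their median change was 1.44 over the 23 tested, against -0.04 over all tested genes. Taken by siRNA, the median change was 1.01 for siFGFR3#35, 3.04 for siFGFR3#36 and 0.57 for siFGFR3#3. Of the 23, 10 were called higher and 0 lower (limma, adjusted p under 0.05), against 20.6% and 24.6% of all tested genes. The count called higher was 3, 4 and 3 without control replicates 1, 2 and 3, 7 without siFGFR3#35, 16 without siFGFR3#36, where 1 was called lower, and 17 without siFGFR3#3. Without siFGFR3#35, siFGFR3#36 and siFGFR3#3, 42.7%, 53.7% and 37.7% of all tested genes were called. IRF1, a transcription factor of the interferon response, rose by 1.12 (SE 0.09), and MX2, an interferon-induced antiviral GTPase, rose by 2.48 (SE 0.39). The order of the siRNAs for the interferon median (siFGFR3#36 highest) was not that for MUC20 (siFGFR3#36 lowest). The part of the interferon response in the mucin changes was not tested.

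Markers of other cell types were read beside the mucins. Of the epithelial markers, 4 were called higher and 2 lower of 10 tested (20.6% and 24.6% of all tested genes were). KRT19, a keratin of simple epithelia and the brightest of them, was at 12.91 in controls and rose by 0.27. GATA3 (0.79), UPK2 (1.14) and UPK1B (0.15) were also called higher, UPK1B not with all rows tested (adjusted p = 0.0638 in limma). The 2 called lower were EPCAM (-0.51) and KRT5 (-0.98). Of the leukocyte markers 5 of 10 rows passed the filter, of the fibroblast markers 3 of 8 and of the endothelial markers 1 of 5. Those called were 1 leukocyte marker lower and 2 fibroblast markers, 1 in each direction. The summed linear signal of the leukocyte rows was 196 to 216 in controls and 171 to 189 in siFGFR3 cells, that of the fibroblast rows 126 to 137 and 134 to 157, and that of the endothelial rows 54.6 to 56.2 and 49.2 to 52.7. The brightest members were CD68 of macrophages (-0.20, adjusted p = 0.356 in limma), the collagen gene COL1A1 (0.64, adjusted p = 0.00391 in limma) and VWF of endothelium (-0.25, adjusted p = 0.0595 in limma). VWF was at 4.04 in controls and 3.79 in siFGFR3 cells, and passed the filter level of 3.89 only through its control values. The leukocyte gene PTPRC was at 2.15 in controls and 2.12 in siFGFR3 cells, near the floor of the arrays.

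Markers of goblet and gland cells did not move together. Of 8 rows 5 passed the filter, and among these BPIFB1, a secreted protein of airway glands, rose by 1.92 (SE 0.10) and SPINK4, a goblet cell protease inhibitor, fell by 0.53. MUC2, the gel-forming mucin of intestinal goblet cells, and TFF3, a goblet cell peptide, did not pass (-0.38 and -0.29). CLCA1 and FCGBP, both secreted by goblet cells, and SCGB1A1 of airway club cells were too dim to be tested. The summed signal of the 8 rows was 266 to 290 in controls and 528 to 671 in siFGFR3 cells, and BPIFB1 carried the increase. Without BPIFB1 the sum was 142 to 173 in controls and 116 to 142 in siFGFR3 cells. The part of these genes in the MUC20 rise was not tested.

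Genes known to contact the membrane mucins were followed next. MET, the receptor bound by MUC20, was at 6.69 in controls and 6.93 in siFGFR3 cells, and its change of 0.23 did not pass (adjusted p = 0.0608 in limma), although it did without siFGFR3#36 (0.27, 0.0432) or siFGFR3#3 (0.29, 0.0462). ERBB2, the receptor bound by MUC4, rose by 0.73 (SE 0.10, adjusted p = 0.00173 in limma), while MUC4 itself stayed near the floor. GRB2, an adaptor that binds MUC1 and links receptors to RAS, changed by -0.17 at the edge of the threshold (adjusted p = 0.0498 in limma). Among other settings, it did not pass with all rows tested (0.0609), without control replicates 1, 2 or 3 (0.158, 0.151 and 0.126) or without siFGFR3#35 (0.0765). GRB2 was called under 5 of the 13 alternatives. CTNNB1, the beta-catenin gene, did not pass (0.08, adjusted p = 0.342). MSLN, which encodes the MUC16 ligand mesothelin, was too dim to be tested, at 2.61 in controls and 2.17 in siFGFR3 cells.

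In the whole list of shedding proteases and binding partners, 10 of 28 tested genes were called higher and 5 lower (20.6% and 24.6% of all tested genes were). The median change was 0.18 against -0.04 over all tested genes. Without control replicates 1, 2 and 3 the count called lower was 3, 2 and 2, and without siFGFR3#3 it was 3. CD44, the hyaluronan receptor, fell by 1.13 (SE 0.06), the largest fall in this list. ERBB3, a partner receptor of ERBB2, rose by 1.23 (SE 0.11). JUP, the plakoglobin gene of cell junctions, rose by 0.46, and ADAM9, a membrane metalloprotease, rose by 0.47. Adjusted p-values of these 4 in limma lay between 0.000196 and 0.00134.

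Of the other mucin genes, 14 of 19 listed were matched and 6 were tested. CD164, a sialomucin, rose by 0.36 (SE 0.05), and PODXL, the podocalyxin gene, fell by 0.55 (SE 0.08), with adjusted p-values of 0.00243 and 0.00239 in limma. MUC3A, a gut membrane mucin, and MUC2 did not pass (-0.14 and -0.38, adjusted p = 0.172 and 0.203). Without siFGFR3#3, MUC2 passed as lower (-0.62, adjusted p = 0.0373 in limma).

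Calls among the enzymes that build mucin-type O-glycans went both ways, as they did over all tested genes (20.6% higher and 24.6% lower). Of the GALNT enzymes, which attach the first sugar, 5 of 13 tested were called higher and 4 lower, with a median change of -0.05. Without control replicates 1, 2 and 3 the counts were 3 and 1, 3 and 2, and 2 and 1, and without siFGFR3#35 and siFGFR3#3 the count lower was 2 and 1. GALNT14 fell by 0.90 (SE 0.14), and GALNT1, GALNT6 and GALNT2 rose by 0.62, 0.45 and 0.37. GALNT2 did not pass without control replicate 3 (0.36, adjusted p = 0.0525 in limma). Of the genes that extend and cap the chains, 7 of 31 were called higher and 7 lower, near the shares over all tested genes, with a median of -0.01. Without control replicates 1, 2 and 3 the counts were 3 and 3, 4 and 1, and 3 and 1, and without siFGFR3#35 and siFGFR3#3 the count lower was 3 and 4. ST6GALNAC2, a sialyltransferase of O-glycans, rose by 1.80 (SE 0.30). ST3GAL1, which caps the core 1 disaccharide with sialic acid, rose by 0.68 (SE 0.14), and SLC35A1, the transporter of CMP-sialic acid into the Golgi, rose by 0.55 (SE 0.10). B3GNT2, which extends poly-N-acetyllactosamine chains, fell by 0.52 (SE 0.07). Adjusted p-values of these 8 named enzymes and transporters in limma ranged from 0.00176 to 0.0125.

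In the goblet and secretory list 7 of 19 tested genes were called higher and 2 lower, with a median of 0.00. Over all tested genes, 20.6% were called higher and 24.6% lower. The count higher was 4 without control replicate 1, and the count lower was 3 without siFGFR3#35 or without siFGFR3#36. The 2 that fell were the trefoil peptides TFF1 (-1.73, SE 0.24) and TFF2 (-0.79, SE 0.11), which are released with mucus in the stomach. BCAS1 rose by 1.35 (SE 0.16), and BPIFB1 is given above. AGR2, a disulfide isomerase needed for mucin folding in mice, rose by 0.55 (adjusted p = 0.0163 in limma), but did not pass without control replicates 1, 2 or 3 (0.0507, 0.0585 and 0.0589). SPDEF, a transcription factor of goblet cell differentiation, did not pass (-0.16, adjusted p = 0.118 in limma), except with repeated quantile normalization (-0.25, 0.0375).

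Of the epithelial transcription factors listed for mucin genes, 11 of 23 tested were called higher and 1, SP3, was called lower, with a median of 0.19. Over all tested genes, 20.6% were called higher and 24.6% lower. With single arrays left out, the count called higher ranged from 7, without control replicate 3, to 14, without siFGFR3#35, and the count called lower from 0, without any one control, to 2, without siFGFR3#36. GATA3, a factor of luminal urothelial cells, rose by 0.79 (SE 0.08), and SOX2 rose by 0.85 (SE 0.12). ELF1 and ELF3, ETS factors active in epithelia, rose by 0.54 (SE 0.06) and 0.43 (SE 0.06). SP3, a zinc finger factor of GC-rich promoters, fell by 0.23, and did not pass without control replicates 1, 2 or 3 (adjusted p = 0.0752, 0.0702 and 0.0817 in limma). Adjusted p-values of GATA3, SOX2, ELF1 and ELF3 in limma lay between 0.000797 and 0.00199.

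**Figure D4:**
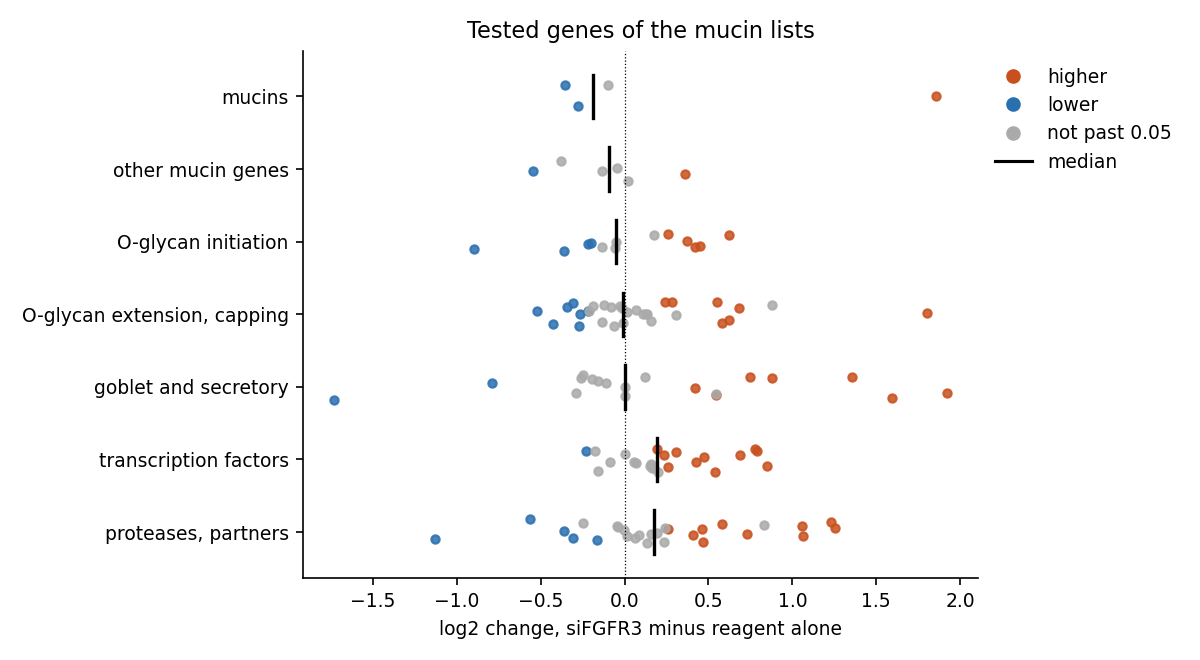
Log2 change, siFGFR3 minus reagent alone, of each tested gene in the mucin set and 6 related lists, with orange for called higher, blue for called lower, grey for not past the threshold of 0.05 and a black bar for the median of the list; vertical scatter is arbitrary. The glycosylation lists spread to both sides of 0, and the transcription factors have 11 of 23 genes called higher (20.6% of all tested genes were).

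Genes beside the mucins on their chromosomes were compared by order only, because the sources used here give no build for the rows. MUC20 and MUC4 are neighbours on chromosome 3 and had changes of 1.86 and -0.15, the second from values near the floor. On the other side of MUC20, MIR570HG did not pass (0.28, adjusted p = 0.0518 in limma) and APOD, a lipid-binding lipocalin, rose by 0.62 (adjusted p = 0.0158 in limma). APOD did not pass without control replicates 1 or 2 (0.0612 and 0.0545). MIR570HG passed under 3 of the 12 alternatives in which it was tested, among them without siFGFR3#3 (0.37, adjusted p = 0.0219 in limma). Beyond MUC4, TNK2, a tyrosine kinase, did not pass (-0.08), and TFRC, the transferrin receptor, fell by 0.27, a call lost without control replicates 1, 2 or 3 (adjusted p = 0.064, 0.0767 and 0.0594 in limma). No other measured gene among the 3 on each side of MUC20 changed by as much as MUC20.

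On chromosome 11 the gel-forming mucins lie together, and on the deposited scale MUC5AC, MUC5B and the 6 measured rows around them had lower means in siFGFR3 cells. The median change over all 19361 rows was -0.08, so most rows had lower means, and the shared direction is not read as particular to this locus. Repeated quantile normalization kept the lower direction for the 6 of these 8 rows that were tested, and was not run for MUC6 and BRSK2. Median centring could not reverse a fall, because every siFGFR3 array had a higher median than every control, which lowers each change. MUC6, the mucin of gastric glands, was too dim to be tested (-0.22), MUC2 did not pass, and MUC5AC and MUC5B fell. The nearby LINC02688 fell by 0.34 and TOLLIP-DT by 0.42. Among other settings, LINC02688 did not pass without control replicates 2 or 3 (adjusted p = 0.0781 and 0.068 in limma). TOLLIP-DT did not pass, among others, without control replicates 1 or 2 (0.126 and 0.109), siFGFR3#35 (0.0698) or siFGFR3#36 (0.0732). Of the 12 alternatives in which they were tested, LINC02688 was called under 9 and TOLLIP-DT under 6. TOLLIP, an adaptor of innate immune receptors, did not pass (-0.20, adjusted p = 0.202 in limma), except with array weights (-0.31, 0.0288) or without siFGFR3#36 (-0.32, 0.0259). Changes of -0.2 to -0.42 were common in the table, as the 15.5% and 22.0% of genes that fell by more than MUC5AC and MUC5B show.

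**Figure D5:**
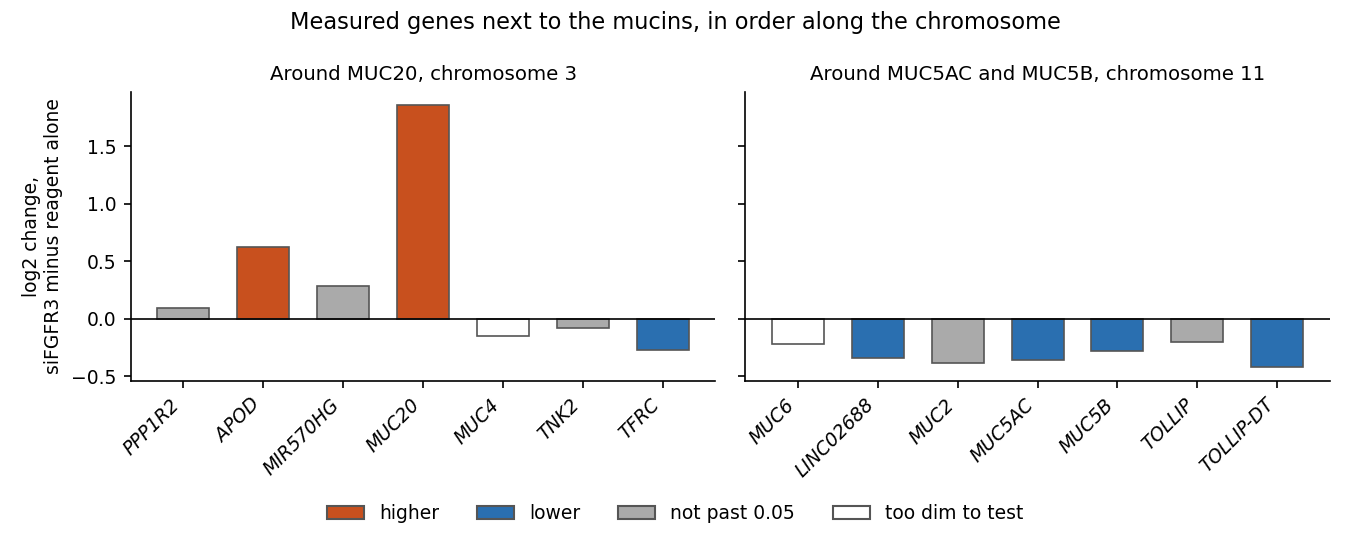
Log2 change, siFGFR3 minus reagent alone, of the measured genes on each side of MUC20 (left) and of MUC5AC (right), in order along the chromosome and not to distance. Orange is called higher, blue called lower, grey not past 0.05 and white too dim to test. MUC20 at 1.86 stands above its neighbours, and the bars around MUC5AC are all below 0, where the median over all rows was -0.08.

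The genes with the profile most like each called mucin were found by the root mean square distance between profiles over the 6 arrays, each centred on its control mean. For MUC20 these were BTN3A3 (distance 0.0476), VSIG2 (0.0786) and SCNN1G (0.0921), with changes of 1.91, 1.88 and 1.90. With siFGFR3#35, siFGFR3#36 and siFGFR3#3, BTN3A3 changed by 2.20, 1.64 and 1.88. SCNN1G encodes a subunit of the epithelial sodium channel, and BTN3A3 encodes a butyrophilin. For MUC5AC the nearest were MESP1, MRPL14 and DNAJC11 (distances 0.016 to 0.0311), and for MUC5B they were DSCR10, SLAMF9 and ANKUB1 (0.0173 to 0.0237). Likeness over 6 arrays in 2 groups is a description of these arrays.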

How the data were processed

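The deposited values are log2 expression levels that the authors, per the submitters' processing notes, made with affy and RMA. RMA corrects background, equalises the array distributions and summarises probes, which reduces a change shared by most genes. The table has 1 row per Entrez gene: 18669 of 19361 rows carried 1 symbol from the platform annotation, updated through RefSeq, and 692 were unnamed. Arrays have no read depth, and their number limits the precision.

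Groups came from the labels. Rows were tested with limma 3.58.1 in R 4.3.3 (lmFit, eBayes with a variance trend), two-sided, with Benjamini-Hochberg adjustment over 13552 rows after the dimmest 30% (5809) were left out. The siRNAs served as replicates. An exact permutation test of 3 arrays against 3 cannot give a p below 0.1. A gene is called at an adjusted p under 0.05, and SE is that of the moderated statistic.

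The members and lists were chosen with earlier results of these data known. Named are FGFR3, the 8 members, the 4 tested genes per list that had the lowest adjusted p (2 for interferon), the brightest marker per cell type and the 3 nearest profiles per called mucin. Neighbours, genes named for their role and single list members (ETV4, ETV5, FOSL1, MET, ERBB2, GRB2, CTNNB1, MSLN, AGR2, SPDEF, SPINK4, TFF3, SP3, PTPRC and other markers) were added after their values were seen. Alternatives were other filters, eBayes settings, median centring, repeated quantile normalization, array weights and leaving out each array.

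MUC1 was equal in 2 controls; 13 to 70 rows were equal within 1e-09 in each of the 15 pairs of arrays, and no array was counted as a copy. Listed genes with no matched row were not analysed here.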

Additional observations from a re-analysis of the deposited data

Results flagged for a closer look

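MUC20 was singled out because its level differed between the siRNA arrays by more than the spread of the controls. This is not particular to MUC20: for 79.9% of tested genes the SD was larger in siFGFR3 cells than in controls. Each siRNA was on 1 array and the spread within an siRNA was not measured. The MUC20 differences are thus between arrays and are not shown to be differences between siRNAs. Its level with siFGFR3#35 was 0.43 above the mean of the other siRNAs on the log2 scale, and its level with siFGFR3#36 was -0.32 relative to the mean of the other siRNAs. Both passed in the limma model with a level for each siRNA (adjusted p = 0.000215 and 0.000839). FGFR3 was at 41.7% and 33.3% of the control mean on those arrays, and the interferon median change was 1.01 and 3.04; their part in the difference was not tested.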

How the results depend on the processing

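MUC20 was the 1 mucin called higher under all 13 alternatives in the comparison of the groups. The count of mucins called lower was 2, and it was 0 with the dimmest 50% of rows left out, where MUC5AC and MUC5B were not tested, 0 with quantile normalization repeated, 1 with array weights, and 0 to 2 with single arrays left out. With siFGFR3#35 the count called higher was 1 and became 2 with no filter, which added MUC15. Its count called lower was 1, and it was 0 with the dimmest 50% left out, 2 without the variance trend and 2 with median centring. The count of mucins that differed between siFGFR3#35 and the other siRNAs was 1, and it was 2 with no filter and 2 without the variance trend. With siFGFR3#3 the count called lower was 0, and it was 3 without the variance trend, 1 with robust variances, 3 with median centring and 0 to 1 with single arrays left out. The causes were not tested. MUC13 changed sign with repeated quantile normalization (0.04). Median centring moved the median of all genes to -0.11 and the share of calls that were higher from 45.6% to 35%. Over FGFR3 and the list genes named by rule, 389 alternative values stayed on their side of the threshold, 4 newly passed and 5 no longer passed. Over 25 of the tested genes named after their values were seen or as nearest profiles, a choice of alternatives made after seeing the data, 261 stayed, 8 newly passed and 43 no longer passed. ETV4, ETV5, FOSL1, EPCAM, KRT5, UPK1B and UPK2 were not among the 25. VWF, which passed the filter only through its control values, was called lower under 3 alternatives. Dim rows limit what can be said of MUC4, MUC13, MUC15 and MUC16. No paired analysis was possible because each siFGFR3 array holds a different siRNA and no label ties it to a control.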
